A study of Homo sapiens with 6 samples.

Results

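The receptor tyrosine kinases outside the EGFR family were followed in cells labelled PANC1, an established human pancreatic ductal carcinoma line, after treatment with gemcitabine. The members were 49 genes given as a list of names from 18 families, of the 20461 genes in the deposited RNA-seq table. All 49 were found in the table. Of these, 38 had at least 10 fragments over the libraries and were tested, among 14854 tested genes in all. Vehicle cells received 0.1% DMSO and treated cells 50 nM gemcitabine, both for 48 h, with 2 RNA-seq libraries and 1 DNaseI-seq library in each condition. The labels name the same line for both conditions and no further agent, and the study describes the RNA-seq libraries as biological replicates. The vehicle libraries held 15153593 and 15766237 fragments and the gemcitabine libraries 13194533 and 13275457. Levels within a gene are given as CPM, the fragments of a gene per 1000000 fragments of the library size after TMM scaling, and on that scale 3 fragments stood for 0.197 to 0.220 CPM.

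A receptor tyrosine kinase spans the cell membrane and carries a ligand-binding part outside and a kinase domain inside the cell. Binding of a growth factor, an ephrin or a collagen brings receptor chains together, the chains phosphorylate each other on tyrosine, and adaptor proteins that dock there pass the signal to the RAS-ERK and PI3K-AKT routes. MET, IGF1R and AXL are known as growth and survival receptors of pancreatic carcinoma cells, while receptors such as PDGFRB, KDR or CSF1R are best known from pericytes, endothelium or macrophages. Gemcitabine is a deoxycytidine analogue that is built into DNA and stalls its replication.

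At 48 h, 4 receptors were called higher in gemcitabine-treated cells: PDGFRB, the PDGF receptor beta chain, the collagen receptors DDR1 and DDR2, and the ephrin-A receptor EPHA2. A further ephrin-A receptor, EPHA7, was called lower. A gene was called where the adjusted p of edgeR's quasi-likelihood test was under 0.05, the fold over 1.5, the higher of the mean FPKM 0.1 or more, and the means 1 FPKM or more apart. FPKM divides the fragments of a gene by the transcript length in kilobases and by the mapped depth. By these criteria 4 of the 38 tested receptors were called higher, beside 5.69% of all tested genes, and 1 was called lower, beside 4.42%. By the adjusted p alone 13 receptors were higher, beside 18.5% of all tested genes, and 8 were lower, beside 20.0%, and the remaining 17 did not pass. The median log2 fold change of the 38 receptors was 0.15, against 0.01 over all tested genes.

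Not all of these changes were equally firm across the fits run. For the fits that follow, the shares of all tested genes past the adjusted p are not given. The receptor counts therefore do not show whether receptors held up better or worse than other genes. With each library left out in turn, 7 receptors passed the adjusted p every time: PDGFRB, DDR1, EPHA2, INSRR and FGFR1, which were higher, and IGF1R and EPHA7, which were lower. The other 14 kept their direction, and each of them missed the threshold without at least 1 of the vehicle libraries. Over all their misses, those without a gemcitabine library included, the adjusted p was 0.0508 to 0.449. Of the 7, DDR1, INSRR and FGFR1 missed the threshold in limma on FPKM with a pseudocount of 1, with adjusted p of 0.0972 for DDR1, 0.0749 for INSRR and 0.774 for FGFR1, whose log2 fold change was then 0.07. In DESeq2, 9 receptors were higher and 5 lower by the adjusted p. The higher receptors that missed there were LTK (adjusted p = 0.228), FGFR2 (0.198), FGFR3 (0.189) and EPHB3 (0.0647). The lower ones that missed were EPHA6 (0.155), EPHA5 (0.0661) and ROR2 (0.0528). With library totals in place of TMM scaling, 15 receptors were higher and 5 lower by the adjusted p. EPHB2 and FGFR3 then joined the called receptors, which made 6 higher and 1 lower. By the same totals 1164 of all tested genes were called higher and 418 lower, against 845 and 656 with TMM scaling.

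The promoters of the 5 called receptors are shown because these were the members that met all 4 criteria. Each sequence is the 200 bases before the canonical start site on GRCh37, read 5′ to 3′ on the gene's own strand, with the GC box (GGGCGG on either strand) and the CCAAT box (CCAAT on either strand) in capitals. The promoters lie at chr5:149535409-149535608 on the minus strand for PDGFRB, chr6:30852096-30852295 on the plus strand for DDR1, chr1:162602054-162602253 on the plus strand for DDR2, chr1:16482565-16482764 on the minus strand for EPHA2 and chr6:94129278-94129477 on the minus strand for EPHA7.
PDGFRB: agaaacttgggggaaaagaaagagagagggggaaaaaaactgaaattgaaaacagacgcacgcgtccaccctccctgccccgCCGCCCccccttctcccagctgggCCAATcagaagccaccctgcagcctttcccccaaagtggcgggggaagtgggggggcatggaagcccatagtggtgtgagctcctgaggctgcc
DDR1: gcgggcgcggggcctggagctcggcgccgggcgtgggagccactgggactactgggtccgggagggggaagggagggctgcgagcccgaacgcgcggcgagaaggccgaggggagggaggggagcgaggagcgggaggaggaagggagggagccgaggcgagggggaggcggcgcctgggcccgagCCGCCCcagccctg
DDR2: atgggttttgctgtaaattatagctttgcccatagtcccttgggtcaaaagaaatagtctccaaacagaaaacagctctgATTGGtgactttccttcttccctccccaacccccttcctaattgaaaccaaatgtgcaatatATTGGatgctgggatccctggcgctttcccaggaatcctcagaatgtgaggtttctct
EPHA2: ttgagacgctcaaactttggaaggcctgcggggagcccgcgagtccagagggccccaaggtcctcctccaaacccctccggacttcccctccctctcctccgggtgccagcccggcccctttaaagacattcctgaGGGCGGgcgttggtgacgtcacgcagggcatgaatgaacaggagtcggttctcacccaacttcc
EPHA7: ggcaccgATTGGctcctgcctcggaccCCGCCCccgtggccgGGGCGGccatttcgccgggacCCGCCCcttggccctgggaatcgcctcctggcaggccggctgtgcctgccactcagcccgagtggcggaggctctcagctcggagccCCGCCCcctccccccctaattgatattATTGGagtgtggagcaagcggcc

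The 5 promoters differed in composition. That of DDR1 was 79.0% G or C with 23 CpG dinucleotides and 1 GC box. The DDR2 promoter was 44.5% G or C with 1 CpG, no GC box and 2 CCAAT boxes. Both collagen receptors were called higher, and the bases before their canonical starts were of unlike content. Which start sites were in use was not measured. PDGFRB had 60.5% G or C, 6 CpG, 1 GC box and 1 CCAAT box, and EPHA2 had 63.0%, 12 CpG and 1 GC box. EPHA7, the receptor called lower, had 71.5%, 16 CpG, 4 GC boxes and 2 CCAAT boxes. Over all 49 receptor promoters the median was 71.5% G or C with 18 CpG, against 67% and 18 over 14445 promoters of tested genes. A GC box stood in 36 of the 49 receptor promoters and in 66.1% of the promoters of tested genes, and a CCAAT box in 15 and in 30.2%. The TATA box (TATAAA) was found only for FLT1 among the receptors, against 4.53% of all promoters, the AP-1 site (TGANTCA) only for PDGFRA, against 2.93%, and the E-box (CACGTG) for FLT3 and EPHA8, against 7.68%. These matches are descriptions of the letters, and no binding was measured.

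PDGFRB (ENSG00000113721.8, chromosome 5, 149493402 to 149535435, minus strand), the receptor of PDGF-B and PDGF-D, had 56.6 and 58.7 CPM in the vehicle libraries and 111.7 and 122.0 in the gemcitabine libraries. The gemcitabine values did not overlap those of vehicle, a separation that the criteria make likely for every called receptor. Its log2 fold change was the largest among the called receptors. The fold was 2.03, a log2 fold change of 1.02 ± 0.07 (SE, n = 2 and 2, edgeR's adjusted p = 1.91e-07). In FPKM the mean went from 20.9 to 59.1, a larger ratio than that of the fragments. The related KIT, the receptor of stem cell factor, moved the other way, with 16.7 and 16.2 CPM in vehicle and 11.2 and 11.5 in gemcitabine (log2 fold change -0.53 ± 0.12, adjusted p = 0.00330), with its fold and its FPKM difference under the limits. PDGFRA, the alpha chain, was listed with 0.699 fragments in 1 gemcitabine library and 0 in the others, and CSF1R, the CSF1 receptor of macrophages, had 1 to 5 fragments per library and did not pass (adjusted p = 0.792).

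The PDGF ligands did not move together. PDGFC, a ligand of the alpha chain, rose from 329 and 360 to 422 and 528 fragments (log2 fold change 0.58 ± 0.11, adjusted p = 0.000999). PDGFA fell from 246 and 242 to 177 and 153 fragments (-0.45 ± 0.13, adjusted p = 0.0105). For PDGFB the log2 fold change was 0.11 ± 0.20 (adjusted p = 0.690) and for PDGFD -0.07 ± 0.18 (adjusted p = 0.783), and these are the ligands that bind the beta chain.

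**Figure D1:**
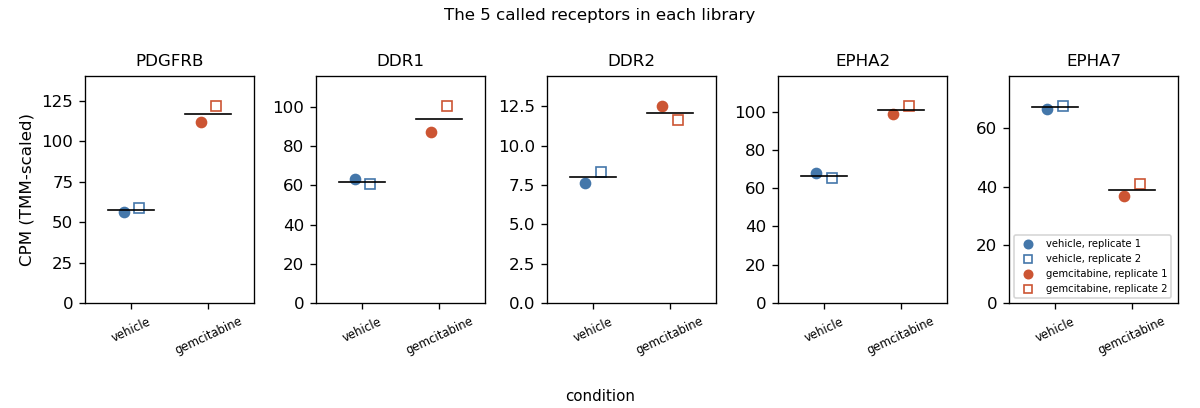
CPM after TMM scaling (vertical axis, from 0) of the 5 called receptors in each RNA-seq library (blue vehicle, orange gemcitabine, filled circles replicate 1, open squares replicate 2, black line mean of 2). PDGFRB goes from 56.6 and 58.7 to 111.7 and 122.0, and EPHA7 goes from 66.8 and 67.8 to 36.7 and 41.0. The conditions do not overlap for any of the 5 genes, which were picked on these same libraries, so the separation adds no support.

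DDR1 and DDR2 are tyrosine kinases that bind collagen fibres. DDR1 (ENSG00000204580.7, chromosome 6, 30844198 to 30867933, plus strand) had 63.2 and 60.5 CPM in vehicle and 87.3 and 100.5 in gemcitabine. All gemcitabine values lay above all vehicle values, with a wider gap between the treated libraries than between the controls. The log2 fold change was 0.60 ± 0.08 (fold 1.52, adjusted p = 3.78e-05). DDR2 (ENSG00000162733.11, chromosome 1, 162601163 to 162757195, plus strand) had 7.64 and 8.34 CPM in vehicle and 12.5 and 11.6 in gemcitabine (log2 fold change 0.59 ± 0.14, fold 1.51, adjusted p = 0.00463). Both folds stand just above the limit of 1.5. DDR1 fell below it without vehicle replicate 2 (log2 fold change 0.58) or gemcitabine replicate 2 (0.50). DDR2 fell below it without vehicle replicate 1 (0.54) or gemcitabine replicate 1 (0.54). The adjusted p of DDR2 was 0.0911 without vehicle replicate 1 and 0.0554 without vehicle replicate 2.

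RNA of COL1A1 and COL3A1 was abundant in all libraries, while collagen protein, which the receptors bind, was not measured. COL1A1 had 62075 and 62658 fragments in vehicle and 56723 and 61229 in gemcitabine (log2 fold change 0.03 ± 0.07, adjusted p = 0.739), and COL3A1 had 31880 to 39067 (0.11 ± 0.09, adjusted p = 0.351). COL1A2, which encodes the other chain of type I collagen, had at most 3 fragments in any library.

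EPH receptors bind ephrins on neighbouring cells, class A receptors mostly the membrane-anchored ephrin-A proteins and class B receptors the transmembrane ephrin-B proteins, and they steer adhesion and cell repulsion. Of the 14 EPH receptors, 12 were tested, 3 were higher and 3 lower by the adjusted p, 25% each way, which is near the 18.5% and 20.0% of all tested genes. EPHA2 (ENSG00000142627.9, chromosome 1, 16450832 to 16482564, minus strand), a receptor often abundant in carcinoma, had 67.8 and 65.1 CPM in vehicle and 98.5 and 103.1 in gemcitabine. The log2 fold change was 0.60 ± 0.07 (fold 1.52, adjusted p = 1.17e-05). Its fold, too, fell below the limit without vehicle replicate 2 (log2 fold change 0.58) or gemcitabine replicate 2 (0.57).

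EPHA7 (ENSG00000135333.9, chromosome 6, 93949738 to 94129405, minus strand) had 66.8 and 67.8 CPM in vehicle and 36.7 and 41.0 in gemcitabine. Both gemcitabine values lay under both vehicle values. The vehicle level was 1.73 times the gemcitabine level (log2 fold change -0.79 ± 0.08, adjusted p = 3.81e-06). EPHA7 overlaps a long noncoding gene on the opposite strand, and its counts could not be split by strand. EPHA6 also fell, from 4.75 and 4.20 to 2.81 and 2.50 CPM (-0.75 ± 0.24, adjusted p = 0.0236), but its FPKM difference was under 1. EPHA5 fell from 89.7 and 95.4 to 74.6 and 82.3 (-0.24 ± 0.07, adjusted p = 0.0191), a fold under 1.5, and missed the threshold with library totals (adjusted p = 0.164) and DESeq2 (0.0661). The pseudokinase EPHA10 had 2 and 7 fragments in vehicle and 0 and 1 in gemcitabine, and did not pass (adjusted p = 0.0857).

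Among the class B receptors, EPHB2 rose from 34.1 and 38.3 to 47.2 and 57.3 CPM (log2 fold change 0.53 ± 0.10, fold 1.44, adjusted p = 0.000789), just under the limit of fold. EPHB3 rose from 2.27 and 2.04 to 4.47 and 4.04 (0.98 ± 0.25, adjusted p = 0.00698), with a difference of FPKM under 1. Its fragments were shared out in fractions, and Cuffdiff marked its FPKM as failed in 1 library. EPHB4, the receptor of ephrin-B2, which overlaps the coding gene SLC12A9 on the opposite strand, did not pass. It had 92.1 and 89.4 CPM in vehicle and 83.3 and 88.9 in gemcitabine (-0.08 ± 0.07, adjusted p = 0.416). EPHA1, EPHA3, EPHA4 and EPHB1 did not pass either, EPHA8 had at most 1 fragment per library, and EPHB6 had none.

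Of the ephrins, EFNA1, the main ligand of EPHA2, had 1249 and 1236 fragments in vehicle and 1327 and 1197 in gemcitabine (log2 fold change 0.14 ± 0.07, adjusted p = 0.153), and none of EFNA2, EFNA3, EFNA4 and EFNA5 passed. Of class B, EFNB1 fell from 115 and 134 to 88 and 80 fragments (-0.45 ± 0.17, adjusted p = 0.0482), and EFNB2 from 172 and 189 to 120 and 136 (-0.38 ± 0.14, adjusted p = 0.0454), and both missed the threshold with library totals (adjusted p = 0.132 and 0.143). EFNB3 had 0 fragments in both vehicle libraries and 2 and 1 in gemcitabine and was not tested.

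**Figure D2:**
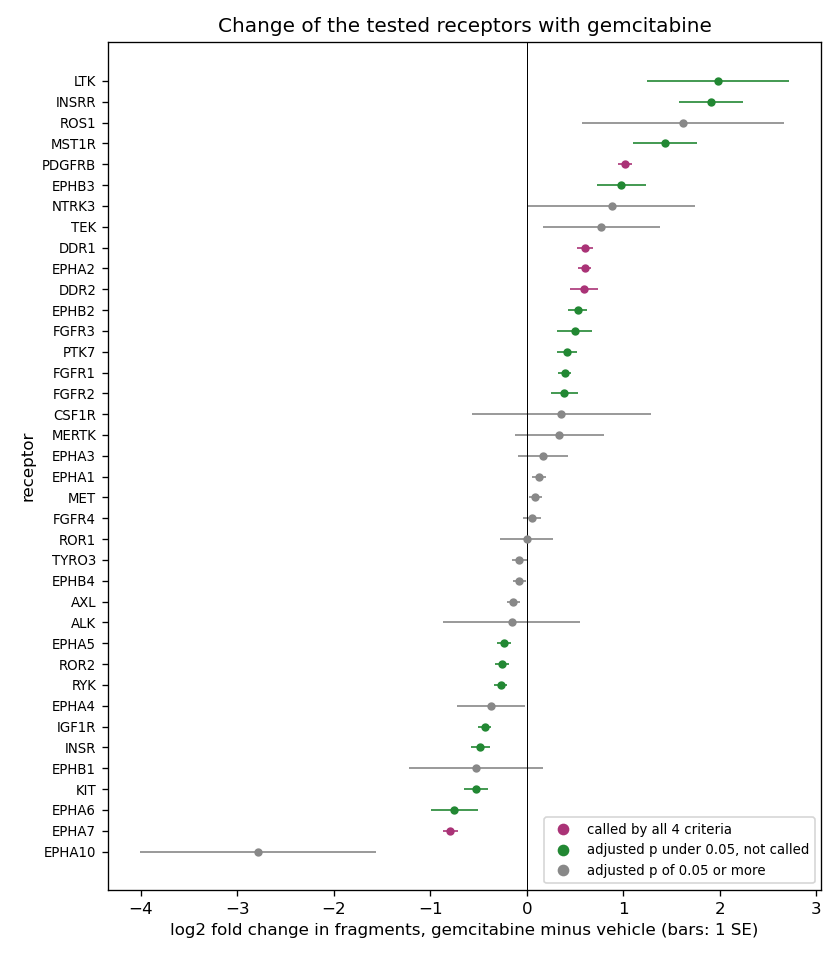
Log2 fold change in fragments, gemcitabine minus vehicle, of the 38 tested receptors (points, edgeR estimates from 2 and 2 libraries, bars 1 SE, colours as in the key). PDGFRB at 1.02 and EPHA7 at -0.79 have short bars, while LTK at 1.98 and EPHA10 at -2.78 rest on few fragments and have long ones.

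The insulin receptor family moved in both directions. IGF1R, the receptor of insulin-like growth factors, fell from 302.2 and 326.2 to 239.2 and 225.5 CPM (log2 fold change -0.44 ± 0.07, adjusted p = 0.000193). INSR, the insulin receptor, fell from 39.4 and 36.6 to 25.1 and 29.3 (-0.48 ± 0.10, adjusted p = 0.00126). Neither fold reached 1.5, the vehicle levels being 1.35 and 1.40 times those of gemcitabine. INSRR, the related receptor that responds to alkaline pH, had 12 and 14 fragments in vehicle and 50 and 41 in gemcitabine (1.91 ± 0.33, adjusted p = 0.000428). INSRR overlaps a coding gene on the opposite strand, and the counts could not be split by strand.

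Among the listed ligands and adaptors of IGF1R and INSR, IGF1 rose from 72 and 70 to 116 and 166 fragments (log2 fold change 1.10 ± 0.20, adjusted p = 0.000604) and was called, while INS was at 0 and IGF2, with 2 to 6 fragments, did not pass (adjusted p = 0.798). IRS2, the docking protein of both receptors, fell from 1890 and 1981 to 889 and 1006 fragments (-0.92 ± 0.08, adjusted p = 6.61e-07) and was called. IRS1 was lower by a smaller estimate (-0.28 ± 0.09, adjusted p = 0.0181), and did not pass with library totals (adjusted p = 0.114). GRB10 (-0.40 ± 0.07, adjusted p = 0.000289) and GRB14 (-0.79 ± 0.20, adjusted p = 0.00539), adaptors that damp insulin receptor signalling, were lower, and GRB14 was called. Other adaptors were higher, SHC1 (0.25 ± 0.06, adjusted p = 0.00748) and PIK3R3 (0.38 ± 0.09, adjusted p = 0.00457), and neither was called. GRB2 (adjusted p = 0.887), GAB1 (0.936), SH2B1 (0.682), SH2B2 (0.916) and PIK3R1 (0.243) did not pass. IGF2R, which takes up IGF2 for degradation, stood at -0.22 ± 0.06 on the log2 scale (adjusted p = 0.0163), with an adjusted p of 0.167 under library totals.

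The FGF receptors bind fibroblast growth factors together with heparan sulphate. FGFR1 rose from 74.9 and 71.6 to 96.0 and 96.2 CPM (log2 fold change 0.39 ± 0.07, adjusted p = 0.000408), and the treated libraries lay close together. FGFR2 rose from 11.0 and 9.32 to 13.1 and 13.5 (0.39 ± 0.14, adjusted p = 0.0358), and FGFR3 from 7.16 and 5.45 to 8.50 and 9.25 (0.50 ± 0.18, adjusted p = 0.0407). FGFR4 did not pass (0.06 ± 0.09, adjusted p = 0.660). No FGF receptor reached a fold of 1.5, and FGFR1 overlaps the coding gene LETM2 on the opposite strand. Of the FGF ligands, FGF2 had 639 to 798 fragments (-0.04 ± 0.09, adjusted p = 0.743), and FGF19 rose from 5 and 10 to 16 and 23 fragments (1.48 ± 0.48, adjusted p = 0.0249).

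MET, the receptor of hepatocyte growth factor, had 196.4 and 211.8 CPM in vehicle and 218.3 and 216.3 in gemcitabine, and the change did not pass (log2 fold change 0.09 ± 0.07, adjusted p = 0.312). Its ligand HGF had at most 4 fragments in any library. MST1R, the receptor of macrophage-stimulating protein, rose from 14 and 16 to 38 and 37 fragments (1.43 ± 0.33, adjusted p = 0.00350), with a difference of FPKM under 1, and overlaps long noncoding genes on the opposite strand. Its ligand MST1 rose from 24.0 and 29.0 to 56.0 and 36.0 fragments (0.91 ± 0.30, adjusted p = 0.0291) and was called.

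AXL, TYRO3 and MERTK form the TAM family, whose ligands GAS6 and protein S link receptors to exposed phosphatidylserine. AXL had 357.5 and 369.9 CPM in vehicle and 322.3 and 338.6 in gemcitabine, a change of -0.14 ± 0.07 on the log2 scale (adjusted p = 0.113). TYRO3 had 67.1 to 76.4 in vehicle and 66.2 to 69.9 in gemcitabine (-0.08 ± 0.08, adjusted p = 0.484), and MERTK had 9 to 15 fragments per library (adjusted p = 0.596). The ligands were higher: GAS6 by 0.23 ± 0.07 on the log2 scale (adjusted p = 0.0156) and PROS1, protein S, by 0.32 ± 0.11 (adjusted p = 0.0271). Neither ligand was called.

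The remaining receptors with at least 1 FPKM were ROR2, RYK and PTK7, which take part in Wnt signalling. ROR2, a WNT5A receptor, fell from 79.3 and 81.6 to 64.6 and 70.3 CPM (log2 fold change -0.26 ± 0.07, adjusted p = 0.0120), and WNT5A stood at -0.22 ± 0.07 on the log2 scale (adjusted p = 0.0157). RYK, a pseudokinase, fell from 132.7 and 127.2 to 107.6 and 108.2 (-0.27 ± 0.07, adjusted p = 0.00494). With library totals ROR2 (adjusted p = 0.112), WNT5A (0.161) and RYK (0.0568) missed the threshold, ROR2 also missed it in DESeq2 (0.0528), and in limma on FPKM its log2 fold change was 0.06. PTK7, also a pseudokinase, rose from 29.4 and 27.5 to 34.0 and 41.8 (0.41 ± 0.10, adjusted p = 0.00581). LTK had 3 and 2 fragments in vehicle and 14 and 5 in gemcitabine (1.98 ± 0.73, adjusted p = 0.0450), so its vehicle level is at the counting floor. ROR1, with 38 to 54 fragments, and NTRK3, TEK, ALK and ROS1, with at most 15, did not pass.

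The 11 receptors under 10 fragments over the libraries were PDGFRA, FLT3, FLT1, FLT4, KDR, NTRK2, RET, EPHA8, EPHB6, TIE1 and MUSK, each with 6 fragments or fewer in all. They include all 3 VEGF receptors, so a change of these RNAs was not detectable at this depth. VEGF ligands were nevertheless present. VEGFA fell from 1394 and 1491 to 955 and 889 fragments (log2 fold change -0.53 ± 0.07, adjusted p = 3.45e-05). VEGFB fell from 1661 and 1530 to 1168 and 1220 (-0.31 ± 0.08, adjusted p = 0.00556), and neither was called. VEGFC rose from 69 and 80 to 95 and 118 (0.63 ± 0.19, adjusted p = 0.0169), and PGF rose from 11 and 13 to 35 and 45 (1.84 ± 0.35, adjusted p = 0.000897). VEGFC and PGF were called. GDF15, the ligand of the receptor complex of GFRAL and RET, had the largest change among the ligands, from 214 and 208 to 924 and 836 fragments (2.17 ± 0.09, adjusted p = 3.59e-09), while RET had 1 fragment in all and GFRAL 1.

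By FPKM the receptors covered a range of levels from IGF1R downwards. IGF1R had 341.2 and 336.8 FPKM in vehicle and 256.0 and 257.7 in gemcitabine, followed by AXL with 87.8 and 88.0 and then 87.3 and 85.5. RYK had 63.1 to 71.3 FPKM over the libraries, DDR1 46.1 to 78.2, MET 48.1 to 58.4 and FGFR1 45.9 to 60.1. The range of DDR1 overlapped those of the other 3, and MET and FGFR1 overlapped each other, so their order is not set beyond the spread, while RYK lay above MET and FGFR1 in every library. PDGFRB came next over the libraries, at 19.1 and 22.6 FPKM in vehicle and 55.7 and 62.6 in gemcitabine. In vehicle it thus lay near EPHA2, TYRO3 and ROR2, and in gemcitabine its range overlapped that of MET. EPHB4 (27.5 to 30.1 FPKM), TYRO3 (22.3 to 28.8) and EPHA2 (17.1 to 28.1) completed the 10 highest. In all, 26 receptors reached a mean of 1 FPKM in 1 condition and 14 reached 10 FPKM.

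**Figure D3:**
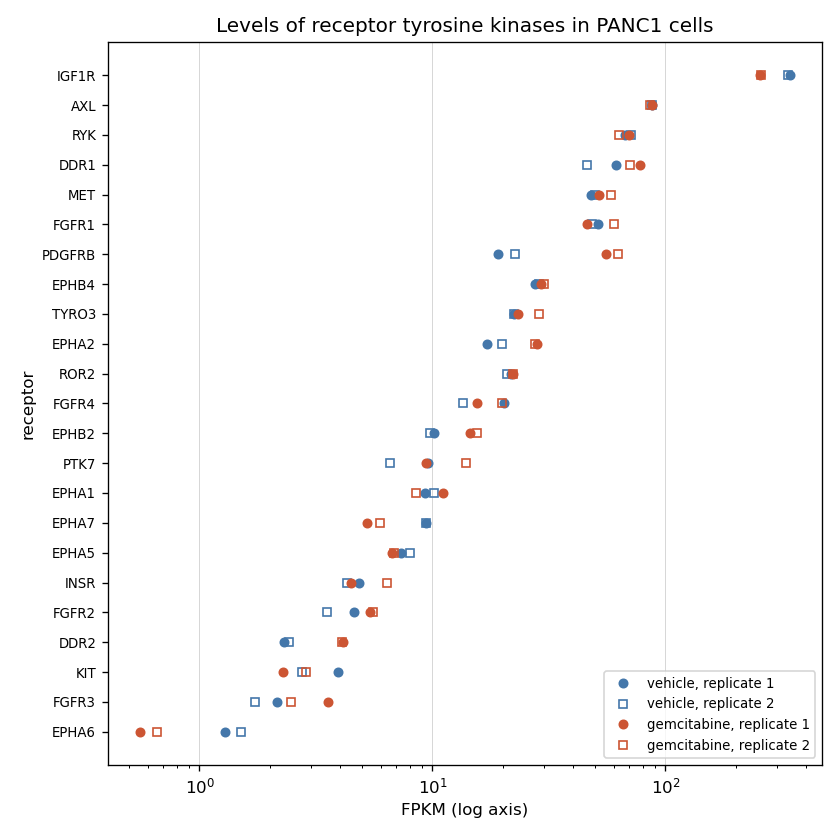
FPKM (horizontal log axis) of the 23 receptors with a mean of at least 1 FPKM over the libraries, with 1 point per library (blue vehicle, orange gemcitabine, filled circles replicate 1, open squares replicate 2). IGF1R lies at 256.0 to 341.2 FPKM, AXL at 85.5 to 88.0, and PDGFRB shows a gap between the conditions.

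The order by FPKM depends on how Cuffdiff scaled the fragments of each gene. Fragments divided by the FPKM and the library total give an implied length, which is a ratio and need not be a transcript length. For ALK in vehicle, with 2 and 15 fragments, it was 7.97e+05 bases, longer than the whole gene (29415640 to 30144452). For IGF1R it was 893 bases in vehicle and 940 in gemcitabine, whereas the annotated canonical transcript has 12235 bases. With fragments per kilobase of the annotated transcript, scaled to the fragments of the library,, a measure added after the values were seen, the order was AXL at 73.5, RYK at 38.9, MET at 31.0 and, in place 4, IGF1R at 22.2. Over the 23 receptors with a mean of at least 1 FPKM, the annotated length exceeded the implied length in both conditions for 20. The median ratio of annotated to implied length over all 23 was 1.69. For EPHA1 the implied length of 6551 to 7667 bases exceeded the annotated 3310, and EPHA1 overlaps the coding gene ZYX on the opposite strand. The implied length also differed between conditions for some genes: for PDGFRB it went from 2657 to 2053 bases, and for INSR from 8014 to 5216. FPKM of INSR accordingly went from 4.57 to 5.42, a log2 ratio of 0.25, while its fragments fell. Opposite signs of FPKM and fragments were also seen for ROR2, TYRO3 and EPHB4, with log2 ratios of FPKM of 0.06, 0.22 and 0.08. Whether different isoforms were used in the conditions was not tested.

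**Figure D4:**
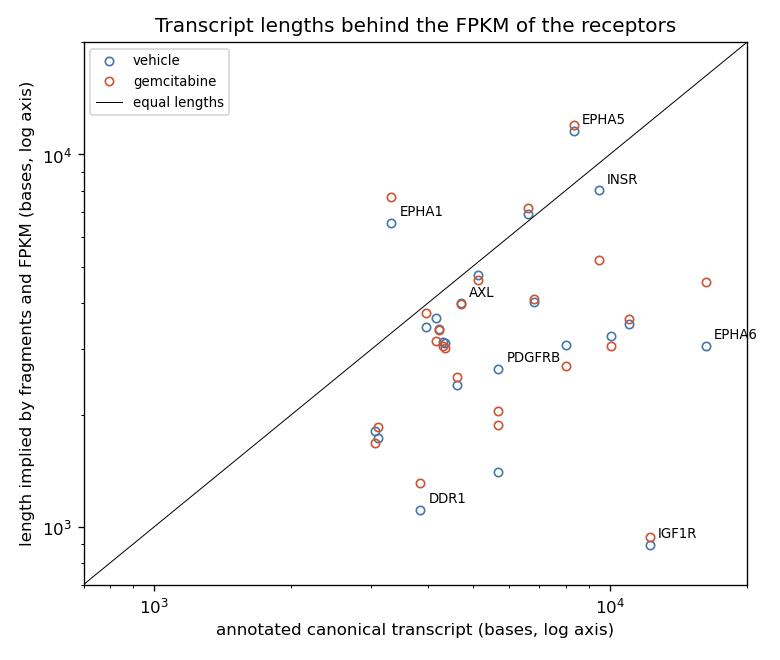
Length implied by fragments and FPKM (vertical log axis, bases) against the length of the annotated canonical transcript (horizontal log axis, bases) for the 23 receptors with a mean of at least 1 FPKM (blue vehicle, orange gemcitabine, line for equal lengths). IGF1R lies far under the line at 893 and 940 against 12235 bases, and EPHA1 lies above it.

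Summed over the 49 members there were 1918 and 1949 CPM in vehicle and 1889 and 1964 in gemcitabine, ranges that overlap. On the library totals without TMM scaling the sums were 1840 and 1882 in vehicle and 1987 and 2015 in gemcitabine, which do not overlap, so the direction rests on the scaling. The number of members with at least 1 FPKM was 25 and 24 in vehicle and 22 and 24 in gemcitabine. IGF1R made up 39.9% and 40.5% of the summed FPKM of the receptors in vehicle and 30.6% and 29.8% in gemcitabine. These shares hold for FPKM alone, which for IGF1R implied 893 and 940 bases against 12235 annotated. Per kilobase of annotated transcript IGF1R stood in place 4, so the shares do not measure its part of receptor transcripts. In bulk RNA, fewer cells with a transcript and less transcript per cell cannot be told apart.

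Genes that act with the receptors were read from 5 lists, to be set against all tested genes, of which 18.5% were higher and 20.0% lower by the adjusted p, and 5.69% were called higher and 4.42% lower. Of 66 ligands, 50 were tested, 15 were higher (30%) and 7 lower (14%) by the adjusted p, and 7 were called (14%), all higher: GDF15, PGF, IGF1, FLT3LG, MST1, ANGPT1 and VEGFC. Their median log2 fold change was 0.18. FLT3LG rose from 34.8 and 29.0 to 49.4 and 64.6 fragments (0.94 ± 0.27, adjusted p = 0.0134) although its receptor FLT3 had at most 2 fragments, and ANGPT1, a ligand of TEK, from 52 and 42 to 77 and 67 (0.73 ± 0.23, adjusted p = 0.0226). Of 19 co-receptors, 12 were tested, 7 were higher (58.3%) and 1 lower (8.33%), and 3 were called, all higher (25%), with a median of 0.39. SDC4, a heparan sulphate proteoglycan that presents FGFs, rose from 1069 and 1050 to 2035 and 2145 fragments (1.09 ± 0.07, adjusted p = 1.01e-07). NRP1, a co-receptor for VEGF and semaphorins, rose from 210 and 219 to 340 and 359 (0.82 ± 0.11, adjusted p = 3.23e-05), and SORT1, which sorts neurotrophins, was also called (0.62 ± 0.14, adjusted p = 0.00312).

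Inside the cell, 33 of 37 adaptors and proximal enzymes were tested, of which 7 were higher (21.2%) and 8 lower (24.2%), shares near those of all tested genes, with a median of 0.08. The called genes were SHC2 (0.92 ± 0.30, adjusted p = 0.0249) and DOK4 (0.73 ± 0.08, adjusted p = 1.22e-05), which bind phosphorylated receptors, and, lower, IRS2, GRB14 and NCK2. NCK2, which links receptors to actin, fell from 402 and 379 to 224 and 250 fragments (-0.61 ± 0.11, adjusted p = 0.000532), and with library totals its fold was under the limit (-0.50). PTPN11, the SHP2 phosphatase needed for RAS activation by many receptors, fell by 0.39 on the log2 scale (adjusted p = 0.00159) without reaching the fold. Of 22 negative regulators, 20 were tested, 5 were higher (25%) and 4 lower (20%), again near all tested genes, with a median of 0.01. SPRY1, an inhibitor of RAS-ERK signalling, was called lower, from 58 and 74 to 28 and 26 fragments (-1.17 ± 0.26, adjusted p = 0.00261). In the same list SPRY4, from 2 and 6 to 9 and 16 fragments (1.73 ± 0.62, adjusted p = 0.0396), and SPRED2 (0.37 ± 0.09, adjusted p = 0.00339) were higher without being called. Of 11 genes of receptor cleavage, 10 were tested, 3 were higher (30%) and 1 lower (10%), with a median of -0.07. The lower gene, PSEN2, a gamma-secretase subunit, was called (-0.59 ± 0.11, adjusted p = 0.000731) with TMM scaling but not with library totals (-0.48), while the sheddases ADAM10 (-0.18 ± 0.08, adjusted p = 0.0737) and ADAM17 (0.18 ± 0.07, adjusted p = 0.0497) were not.

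**Figure D5:**
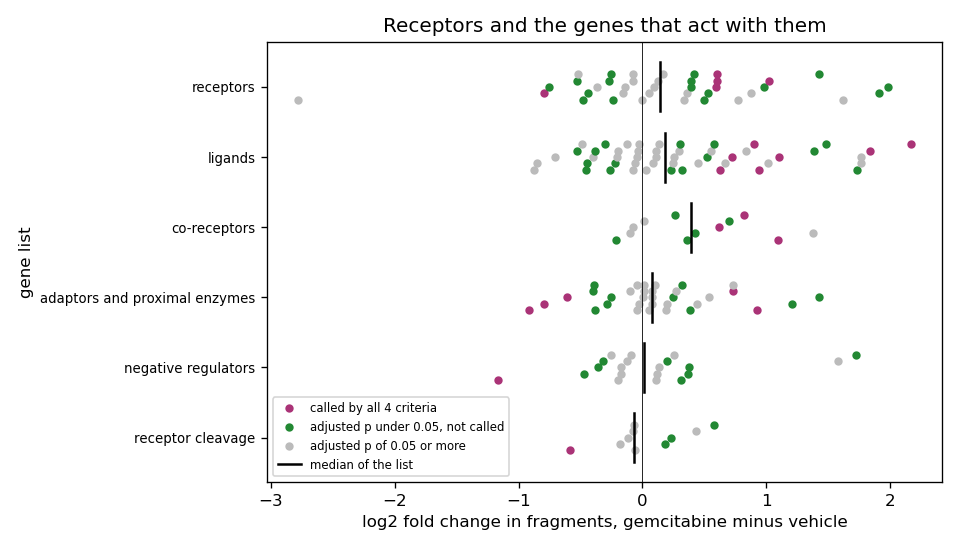
Log2 fold change in fragments, gemcitabine minus vehicle (horizontal axis), of each tested receptor and of each tested gene in 5 lists of ligands, co-receptors, adaptors, negative regulators and cleavage enzymes, with 1 point per gene, colours as in the key and a black line at the median of each list. The called ligands all lie on the right, with GDF15 at 2.17, and the called genes of the adaptor list lie on both sides.

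The labelled cell type was checked with marker genes, and these did not all go with a ductal carcinoma line. KRT7, KRT8, KRT18 and VIM had 5963 to 17660 fragments per library, whereas KRT19 had 45 in each vehicle library and 94 and 88 in gemcitabine, and CDH1 had 4 to 13, while the fibrillar collagen genes COL1A1 and COL3A1 had the high counts given above. The identity of the line was not tested. Since PDGFRB and DDR2 are also markers of stromal cells, markers of fibroblasts, stellate cells and mural cells are given beside them. Over 8 fibroblast and stellate genes the summed level was 6765 and 6600 CPM in vehicle and 6543 and 7509 in gemcitabine. Among them COL1A2 was at 0 to 3 fragments, while DES (log2 fold change 1.95 ± 0.16), FAP (0.95 ± 0.13) and LUM (0.77 ± 0.18) were called higher. ACTA2 was higher without being called (0.53 ± 0.08), and DCN had a lower estimate that did not pass (-0.23 ± 0.31, adjusted p = 0.597). Over 4 mural genes the sum was 347.6 and 344.6 in vehicle and 438.4 and 460.1 in gemcitabine. CSPG4 was called higher (0.93 ± 0.08), and MCAM (0.26 ± 0.07) and NOTCH3 (0.34 ± 0.09) were higher without being called. RGS5 went the other way, from 9 and 14 to 5 and 6 fragments, and did not pass (-0.93 ± 0.54, adjusted p = 0.194). The 5 endothelial genes in the table summed to 42.5 and 44.1 CPM in vehicle and 40.6 and 40.9 in gemcitabine. ERG held most of that sum with 503 to 639 fragments per library, VWF rose from 8 and 9 to 34 and 30 fragments (2.01 ± 0.39, adjusted p = 0.000902), and CDH5 had 0 to 3. Of 6 leukocyte genes 4 had under 3 fragments in every library while CD68, a lysosomal protein, was called higher (0.94 ± 0.13). The 3 mast cell genes, given beside KIT, summed to 0.963 and 1.84 CPM in vehicle and 2.45 and 1.40 in gemcitabine, with TPSAB1 at 0. The part of these markers in the changes of PDGFRB and DDR2 was not tested.

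Open chromatin at the receptors was sparse in the deposited peak lists, which hold 9606 peaks for vehicle and 10695 for gemcitabine from 1 library each, so that a difference between them has no replicate check. DNaseI-seq reads sites where the enzyme DNase I can cut accessible DNA. Within 1 kb of an annotated coding start, 4 of the 49 receptors had a vehicle peak (MET, AXL, EPHB3 and ALK), and of these only AXL had a gemcitabine peak. Counted over the 38 tested receptors alone, 4 had a peak in at least 1 condition. Of all tested genes with an annotated start, 27.8% had such a peak in vehicle, 32.2% in gemcitabine and 39.0% in at least 1 condition. The scores of the receptor peaks were 51.8 to 90.1, where the lists begin at 50, and none reached 100. None of the 5 called receptors had a peak within 1 kb of a start. From the canonical starts, the nearest peak lay 133156 bases away in vehicle and 107857 in gemcitabine for PDGFRB, 23262 and 23181 for DDR1, 26374 and 26407 for DDR2, 80947 and 11747 for EPHA2, and 830803 and 1089521 for EPHA7.

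The AXL peak is shown because it was the only receptor peak within 1 kb of a start that both lists held. Within 5 kb FGFR2 also had a peak in both lists, and MST1R had 1 in gemcitabine. The AXL peak spans chr19:41731661-41732178 in vehicle (score 82.8) and chr19:41731366-41732439 in gemcitabine (score 90.1), and lies upstream of an alternative AXL start at position 41732660. Its shared part begins past the canonical start, which is at position 41725128, with no AXL exon in the stretch printed. The middle 200 bases of the shared part, chr19:41731820-41732019 on the plus strand of GRCh37, are 60.5% G or C with 6 CpG and the GC box in capitals.
AXL: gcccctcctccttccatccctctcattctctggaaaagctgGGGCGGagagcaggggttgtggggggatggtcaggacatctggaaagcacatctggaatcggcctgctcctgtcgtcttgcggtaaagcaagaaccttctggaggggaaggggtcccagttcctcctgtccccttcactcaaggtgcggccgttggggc
The vehicle peaks of MET (chr7:116312957-116314159, score 61.3), EPHB3 (chr3:184279013-184279769, score 51.8) and ALK (chr2:29446859-29447443, score 53.0) had no partner in gemcitabine within the window. The ALK peak lay 93 bases from an alternative start at position 29446766. From the canonical ALK start at position 30144452, the nearest vehicle peak lay 331302 bases away. For MET and ALK no change of fragments passed the test, and for EPHB3 the fragments were higher in gemcitabine while its peak was listed for vehicle alone. A score near the start of a list is also near the limit at which a peak is left out, so a missing peak does not show closed chromatin.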

How the data were processed

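RNA-seq of 2 vehicle and 2 gemcitabine libraries and DNaseI-seq peaks of 1 library per condition were used. Single-end reads had been mapped by the authors with TopHat2 2.0.8 (build hg19) and counted with Cuffdiff 2.0.2 on Gencode protein-coding genes, requiring 10 reads per gene. Estimated counts (fragments per gene and library) and FPKM were deposited by the authors in 1 table. The authors called peaks with MACS at a p-value of 1e-05, and the deposited lists hold position and score. The MACS version is not given in the sources used here. Replicate numbers come from an index in the table that is not tied to the sample labels, and they only name the libraries.

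Estimated counts were rounded, genes with at least 10 fragments over 4 libraries were kept, and the quasi-likelihood test of edgeR 4.0.16 (R 4.3.3, TMM scaling, no covariate, 2-sided, Benjamini-Hochberg adjustment over 14854 genes) was run in place of Cuffdiff. SE is the log2 fold change divided by the square root of F. The test was checked on simulated counts. Library pairs differed by more than sampling noise (mean chi-square per gene 2.17 for vehicle and 5.16 for gemcitabine). Without strand, reads of overlapping genes cannot be split, which also holds for AXL, EPHA4 and EPHA5, each with a noncoding gene on the opposite strand. Lengths, start sites and sequences came from GRCh37, whose chromosome names and lengths hold all peaks, with a later Gencode annotation. Members and lists were chosen with earlier results of these data known, and the study's own protein-coding annotation sets what could be counted. Named were every receptor past the adjusted p, the 10 highest by FPKM, the relatives of called receptors, and called list genes and ligands of called receptors. Other genes were named after their values were seen. Floors cover counting error only. The alternatives were DESeq2 1.42.0, other scalings and filters, limma 3.58.1 on log2 FPKM with pseudocounts of 1 and 0.1, a replicate block, each library left out, and other limits for levels and peaks.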

Additional observations from a re-analysis of the deposited data

How the results depend on the processing

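Of the 21 receptors past the adjusted p, 19 kept their direction under every alternative run, and ROR2 and INSR turned. ROR2 was at 0.057 in limma with a pseudocount of 1 FPKM, filtered or not, and at 0.060 with 0.1, and INSR at 0.19 and 0.22, since limma read FPKM and the other fits fragments. PDGFRB and EPHA7 were called in every setting but limma without a filter, which called 45 of all genes (28 higher and 17 lower) and no receptor (0 past its adjusted p in either direction). Receptors past the adjusted p numbered 4 higher and 2 lower in limma with pseudocount 1, and 3 and 2 with 0.1. They numbered 15 higher and 5 lower under library totals, and 9 higher and 5 lower under DESeq2. Called higher were 2 in both filtered limma fits. All genes called lower numbered 418 under library totals (1164 higher, with the median log2 fold change moved from 0.01 to 0.12), 326 in limma with pseudocount 1 and 350 with 0.1. With 1 library left out, the lone sample being assumed to vary like the others, all calls ranged from 1268 to 1694 (674 to 923 higher, 594 to 771 lower), receptors past the adjusted p from 5 to 12 higher and 2 to 8 lower, receptors called higher from 2 to 4 and called lower from 1 to 1. The low ends came from leaving out a vehicle library: 5 higher and 2 lower without vehicle replicate 1, and 7 and 3 without vehicle replicate 2. Called higher fell to 2 without vehicle replicate 2 or gemcitabine replicate 2. The replicate block, with no sign of pairing (correlation of same-numbered deviations -0.0156), gave 844 genes higher and 661 lower, and PDGFRB 1.02. Receptors with a peak numbered 0 and 0 at a score of at least 100, and 3 for gemcitabine within 5 kb. Under library totals, each list's number of genes past the adjusted p, both directions together, stayed within 1.5 times, but ligands lower went from 7 to 3, co-receptors lower from 1 to 0, adaptors higher from 7 to 12, called adaptors from 2 to 3 higher and 3 to 2 lower, and called cleavage genes from 1 lower to 1 higher. Shares of all tested genes past the adjusted p are not given for the alternative settings, so the receptor counts there have no such comparison. What lies behind the changes between settings was not tested, and each condition rests on 2 RNA-seq libraries.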
